A study of Homo sapiens with 8 samples.

Results

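The HOX genes were examined in Ea.hy926, an established human line made by fusing umbilical vein endothelial cells with the A549 lung carcinoma line. They were taken as every protein-coding gene whose symbol is HOXA, HOXB, HOXC or HOXD followed by a number. That gave 39 genes among the 38010 of the deposited table, and all 39 were matched by identifier. Poly(A)-enriched RNA was sequenced from confluent cultures of 2 lines, with 4 biological replicates each. The first was the parental line, and the second was its Rho0 counterpart, described by the submitters as deficient in oxidative phosphorylation. Rho0 is the usual name for cells without mitochondrial DNA. No treatment was named for either line. Each condition was represented by 1 line, so a property of the Rho0 line and an effect of the deficiency cannot be told apart, and p-values measure the spread between cultures of these lines.

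HOX genes encode homeodomain transcription factors that give cells along the body axis their position. They lie in 4 clusters, and genes with the same number in different clusters, called paralogs, descend from 1 ancestral gene. Low numbers are used toward the head and high numbers toward the tail and the tips of the limbs, and the order of the genes along the chromosome follows the same sequence. Adult endothelial and other differentiated cells keep a set of active HOX genes that differs with their site of origin.

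In GENCODE 29 coordinates on GRCh38, the 11 HOXA genes span chr7:27092993-27200106 on the minus strand and the 10 HOXB genes chr17:48528526-48729178, also on the minus strand. The 9 HOXC genes span chr12:53938765-54056030 and the 9 HOXD genes chr2:176092891-176190907, both on the plus strand. HOXB13 lies apart, 98.4 kb from HOXB9.

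Promoter sequences are shown for HOXD, the cluster whose summed level differed most between the lines. Each runs from 250 bases before to 50 bases after a RefSeq transcription start on GRCh38.p14 and is written 5′ to 3′, with CG dinucleotides in capitals. HOXD1, HOXD3 and HOXD8 rose in Rho0, whereas HOXD13, at the posterior end of the same cluster, had 1 count in all libraries together.
HOXD1 (chr2:176188418-176188717, plus strand): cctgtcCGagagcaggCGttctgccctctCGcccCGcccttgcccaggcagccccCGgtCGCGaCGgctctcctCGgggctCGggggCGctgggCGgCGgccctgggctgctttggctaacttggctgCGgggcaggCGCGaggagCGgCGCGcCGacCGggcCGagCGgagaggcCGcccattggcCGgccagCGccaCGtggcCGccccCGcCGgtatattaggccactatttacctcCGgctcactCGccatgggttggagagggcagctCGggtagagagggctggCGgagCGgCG
HOXD3 (chr2:176157057-176157356, plus strand): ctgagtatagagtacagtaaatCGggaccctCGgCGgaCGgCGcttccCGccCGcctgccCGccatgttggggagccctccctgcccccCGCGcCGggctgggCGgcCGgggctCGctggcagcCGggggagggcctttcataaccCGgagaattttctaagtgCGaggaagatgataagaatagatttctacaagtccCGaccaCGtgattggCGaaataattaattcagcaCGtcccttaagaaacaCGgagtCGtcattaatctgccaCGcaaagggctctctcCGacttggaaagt
HOXD8 (chr2:176129455-176129754, plus strand): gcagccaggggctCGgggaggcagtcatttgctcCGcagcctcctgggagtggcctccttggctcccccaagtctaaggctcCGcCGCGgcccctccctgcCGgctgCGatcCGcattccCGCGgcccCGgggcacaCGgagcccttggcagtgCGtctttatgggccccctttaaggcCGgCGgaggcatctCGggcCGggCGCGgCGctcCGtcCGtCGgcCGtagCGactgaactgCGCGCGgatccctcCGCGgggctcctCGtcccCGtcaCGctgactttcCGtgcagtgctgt
HOXD13 (chr2:176092471-176092770, plus strand): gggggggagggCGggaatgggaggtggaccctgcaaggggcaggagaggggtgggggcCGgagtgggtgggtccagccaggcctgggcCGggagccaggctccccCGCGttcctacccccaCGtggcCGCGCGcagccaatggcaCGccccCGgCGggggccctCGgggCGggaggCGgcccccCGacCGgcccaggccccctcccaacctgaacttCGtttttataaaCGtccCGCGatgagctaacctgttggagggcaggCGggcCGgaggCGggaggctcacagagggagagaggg

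These promoters hold 36, 25, 34 and 24 CG dinucleotides, in the order shown. Among 35116 promoters of the same length, 12.7% had at least as many as HOXD1, 32.0% as many as HOXD3, 15.6% as many as HOXD8 and 33.9% as many as HOXD13. The table held 27 promoters for 20 of the 39 HOX genes, with a median of 22 CG dinucleotides against 14 over all promoters. HOXA3 supplied several of the 27, HOXC4 and HOXC5 were listed with the same sequence, and HOXB1 was the only HOXB gene. The letters CCAAT, searched on both strands, were present in 18 of the 27, against 34.6% of all promoters. TATAAA was present in 5 of the 27, against 11.5% of all promoters, and TGATNNAT, a form of the motif bound by HOX and PBX proteins together, in 3 of the 27, against 7.40%. Each of the 4 promoters shown, that of HOXD13 included, held more CG dinucleotides than the median promoter. That does not hold for the whole cluster. Of the HOXD promoters not shown, that of HOXD4 held 4, and 75.5% of all promoters had at least as many. Those of HOXD10, HOXD11 and HOXD12 held 23, 27 and 19. A motif match is a description of the letters, not of binding.

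Libraries held 11721708 to 37203507 estimated counts. Levels are given as CPM, the usual depth-scaled count, after TMM scaling, and 3 counts corresponded to 0.0676 to 0.226 CPM over the libraries. Messages of the 13 protein-coding mitochondrial genes made up 16.05% to 21.4% of the parental libraries and 0.00296% to 0.149% of the Rho0 libraries. The 15 endothelial markers summed to 8135 to 9118 CPM in the parental line and 7502 to 8601 CPM in Rho0. None was at 0, although CLDN5 was under 1 CPM in both. Single markers moved both ways within that sum. In the test described below, 4 of the 14 tested were higher and 6 lower, against 29.0% and 25.4% of all genes tested. MCAM fell from 881 to 137 CPM and EMCN from 7.78 to 0.398 CPM, whereas PECAM1 rose from 1086 to 2118 CPM and KDR from 13.8 to 131 CPM. The 12 lung carcinoma epithelial markers summed to 2612 to 2885 CPM and 1297 to 2082 CPM, with NKX2-1 at 0. Of the 12, 7 were under 1 CPM in both lines, and KRT7, KRT8 and KRT18 made up most of the sum. KRT8 fell from 889 to 385 CPM and KRT18 from 900 to 487 CPM, whereas KRT7, at 912 and 830 CPM, was not called. Of the 8 tested, 4 were lower, against 25.4% of all genes, and 1 was higher, EPCAM, which rose 2.20-fold while under 1 CPM in both lines. EPCAM passed the filter on low counts mainly through Rho0, and CLDN7, 1 of the 4 lower, mainly through the parental line. The 10 fibroblast and mural markers summed to 258 to 285 CPM and 133 to 202 CPM, and 7 of the 10 were under 1 CPM in both lines. RGS5 made up most of that sum, at 256 ± 13.01 and 104 ± 27.6 CPM, whereas FAP, ACTA2 and DCN rose, FAP 6.40-fold. The 8 blood markers summed to 224 to 274 CPM and 56.1 to 61.7 CPM, with CD3E and HBB at 0 and 4 of the 8 under 1 CPM in both lines. LAPTM5 made up most of that sum, at 242 ± 20.8 and 46.1 ± 2.61 CPM, whereas CD53, PTPRC and CORO1A rose, CD53 6.59-fold. The part of these differences in the HOX results was not tested. In such bulk RNA, fewer cells with a transcript and less of it per cell cannot be told apart.

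Of the 39 HOX genes, 28 passed the filter on low counts. In edgeR's quasi-likelihood test, with Benjamini-Hochberg adjustment over all 15184 genes tested and a threshold of 0.05, 9 were higher in Rho0, 6 were lower and 13 were not called. Over all genes tested, 54.4% were called, 29.0% higher and 25.4% lower, so the shares of 32.1% and 21.4% among the tested HOX genes were near the background. At a log2 fold change of 1 or more, 5 HOX genes were higher and 2 were lower, where the background was 8.76% and 5.51% of genes. HOXB13, HOXD1 and HOXC10, which are among the 5, passed the filter mainly through their Rho0 counts. HOXB8, 1 of the 2 that were lower, passed it mainly through its parental counts. Neither these counts nor the shares of 32.1% and 21.4% therefore describe all 39 genes. The median log2 fold change was 0.12 for the tested HOX genes and 0.05 for all genes. The summed level of all HOX genes was 181 ± 2.42 CPM in the parental line and 183 ± 9.46 CPM in Rho0 (SD, n = 4), and the groups overlapped. With library size alone as the scaling, which moved the median of all genes by 0.39 on the log2 scale, 19 HOX genes were higher and 3 lower, and the log2 ratio of the HOX total was 0.41. The higher genes were then 6 in HOXA, 4 in HOXB, 4 in HOXC and 5 in HOXD. Of the 15 calls, 12 held in every alternative in which the gene was tested.

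The active genes were concentrated at low and middle paralog numbers. In each line 23 genes had a mean of at least 1 CPM. All 15 genes with paralog numbers 4 to 8 passed the filter, as did 6 of the 8 with numbers 1 to 3 and 7 of the 16 with numbers 9 to 13. HOXB1, HOXC11 and HOXD11 had 0 counts in every library, which allows up to 3 counts in a library. HOXC12 and HOXD12 had 1 count in each line.

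**Figure D1:**
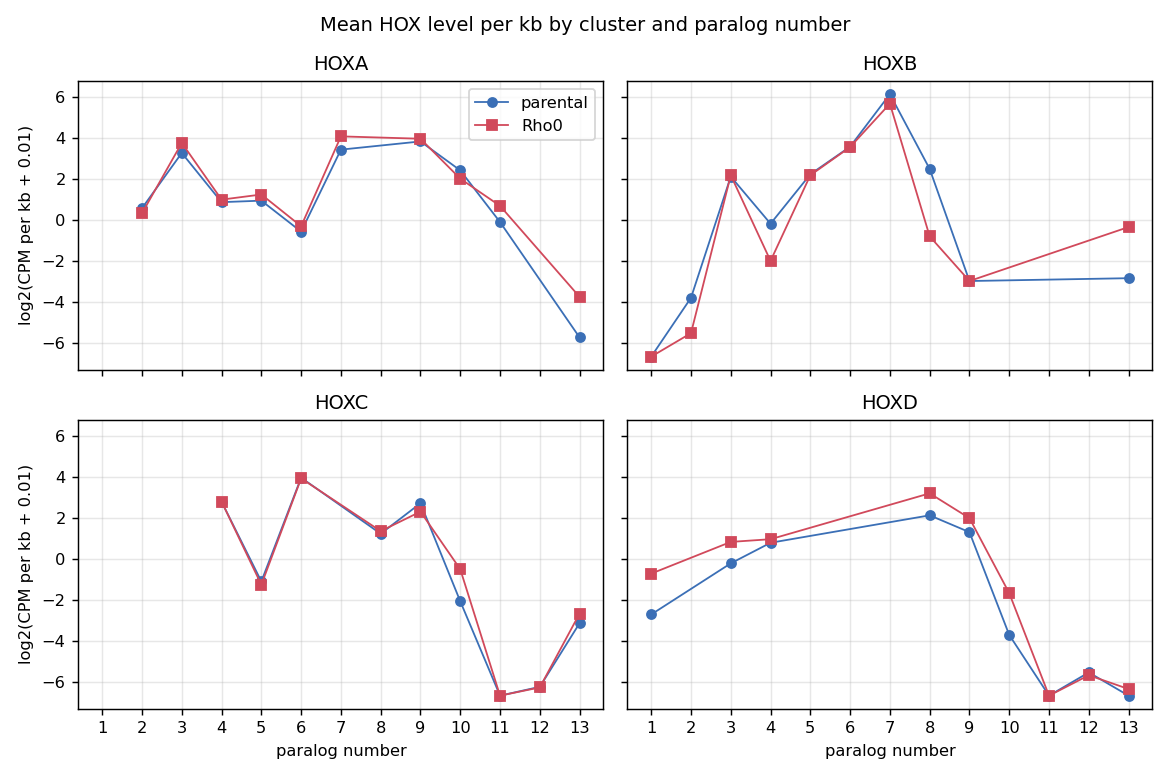
Mean HOX level per kb of median transcript length, as log2(CPM per kb + 0.01), against paralog number in each cluster, for 38 HOX genes in the parental (circles) and Rho0 (squares) lines. HOXB7 is the highest point in both lines, and HOXB8 falls from 5.70 to 0.574 CPM per kb.

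Levels were compared between genes per kb of median transcript length. HOXB7 was the highest HOX gene in both lines, at 71.5 ± 2.56 CPM per kb in the parental line and 51.9 ± 3.70 CPM per kb in Rho0. With the longest transcript as the length it still ranked first, at 27.5 and 19.97 CPM per kb. In the parental line HOXC6 followed at 15.9 CPM per kb, HOXA9 at 14.5 and HOXB6 at 12.1. In Rho0 HOXA7 followed at 17.2 CPM per kb, then HOXA9 at 15.8 and HOXC6 at 15.5. The order below HOXB7 depended on the transcript length used. HOXD8, for example, ranked 12 in the parental line and 7 in Rho0 with the median length, and 8 and 2 with the longest.

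HOXD was the cluster with the largest rise in summed level. Its sum was 15.1, 15.9, 14.7 and 16.1 CPM in parental replicates 1 to 4 and 32.0, 27.9, 28.6 and 25.2 CPM in Rho0 replicates 1 to 4. Every Rho0 library was above every parental one, and the mean was 1.84-fold higher. HOXB moved the other way, from 74.96 ± 0.896 to 60.4 ± 0.995 CPM without overlap (log2 ratio -0.31), although with library size alone as the scaling its log2 ratio was 0.08. HOXA was 45.9 ± 0.990 CPM in the parental line and 51.4 ± 3.49 CPM in Rho0, without overlap, and HOXC was 44.6 ± 3.07 and 42.6 ± 3.47 CPM, with overlap. Shares of the HOX total do not depend on the scaling between libraries. HOXD took 8.55% of it in the parental line and 15.5% in Rho0, HOXB 41.4% and 33.1%, HOXA 25.4% and 28.1%, and HOXC 24.6% and 23.3%.

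**Figure D2:**
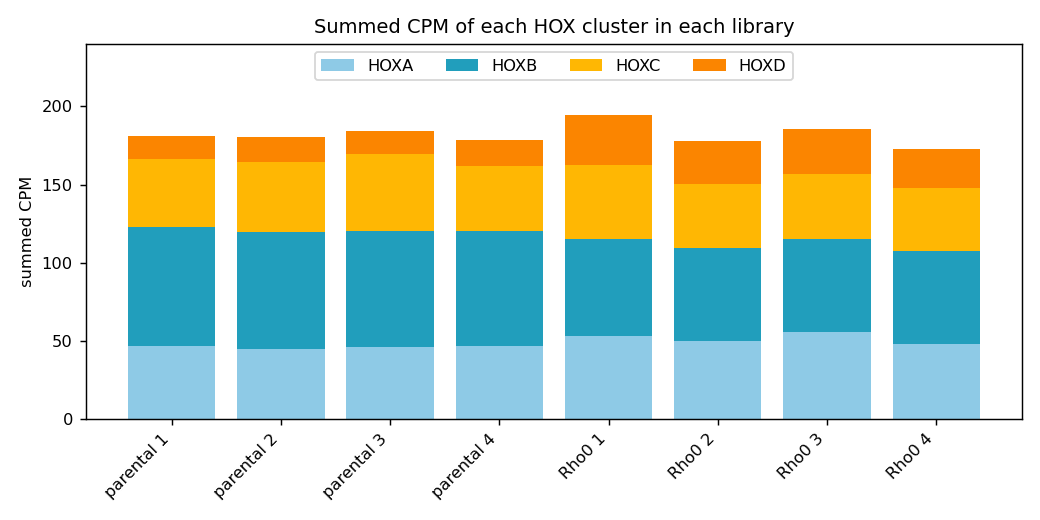
Stacked bars of the summed CPM of each HOX cluster, 1 bar for each of the 8 libraries. The HOXD segment lies between 14.7 and 16.1 CPM in the parental libraries and between 25.2 and 32.0 CPM in the Rho0 libraries, and the HOXB segment is smaller in every Rho0 library on this TMM scale, a direction that turns with library size alone.

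Of the 9 HOXD genes 5 were tested, and 4 of them rose, where 29.0% of all genes did. HOXD1 passed the filter through its Rho0 counts, so this count does not describe the whole cluster. With the filter of 50 counts, which HOXD1 and HOXD3 did not pass, the 2 others, HOXD8 and HOXD9, were still called higher. HOXD8, a middle gene of the cluster known for a role in the axial skeleton, measured 6.52, 6.56, 5.16 and 7.30 CPM in parental replicates 1 to 4 and 14.2, 12.9, 14.4 and 12.3 CPM in Rho0 replicates 1 to 4. All Rho0 libraries were well above all parental ones. It rose 2.10-fold (log2 fold change 1.07, SE 0.12, adjusted p = 2.4e-05). HOXD9, its posterior neighbour, measured 4.13, 5.13, 4.85 and 4.65 CPM in parental replicates 1 to 4 and 10.3, 7.01, 6.95 and 5.95 CPM in Rho0 replicates 1 to 4. Rho0 replicate 1 was the highest, and the groups did not overlap (log2 fold change 0.69, SE 0.17, adjusted p = 0.006).

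HOXD1, the most anterior gene of the cluster, measured 0.184, 0.318, 0.464 and 0.186 CPM in parental replicates 1 to 4 and 1.40, 1.21, 0.901 and 1.31 CPM in Rho0 replicates 1 to 4. It had 25 counts in all parental libraries together and 145 in the Rho0 libraries, and the groups did not overlap. It rose 4.21-fold (log2 fold change 2.07, SE 0.31, adjusted p = 0.00022). Antisense exons overlap 58.1% of its exon bases, and the sources used here do not say whether counting used the strand. HOXD3, which induces integrin expression in endothelial cells, measured 1.70, 1.43, 1.39 and 1.30 CPM in parental replicates 1 to 4 and 3.37, 3.09, 3.04 and 2.59 CPM in Rho0 replicates 1 to 4. The groups were apart and the gene rose 2.07-fold (log2 fold change 1.05, SE 0.16, adjusted p = 0.00023). HOXD4, which lies within the annotated span of HOXD3, was at 2.56 ± 0.135 CPM in the parental line and 2.89 ± 0.280 CPM in Rho0 and was not called (adjusted p = 0.32). It was called higher in limma-trend on the deposited log2 table (log2 fold change 0.28, adjusted p = 0.033) and with library size alone (0.56, adjusted p = 0.0056).

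HOXD3 and HOXD4 share 62.2% and 80.5% of their exon bases with the annotated gene AC009336.2 on the same strand, so their estimated counts are uncertain. The sum of these 3 genes, chosen after the values were seen, was 5.57 ± 0.490 CPM in the parental line and 8.42 ± 0.534 CPM in Rho0, 1.51-fold higher. Toward the posterior end, HOXD10 had 6 counts over the parental libraries and 31 over the Rho0 libraries. It did not pass the filter, and without a filter its log2 fold change was 1.99 (edgeR, adjusted p = 0.028).

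**Figure D3:**
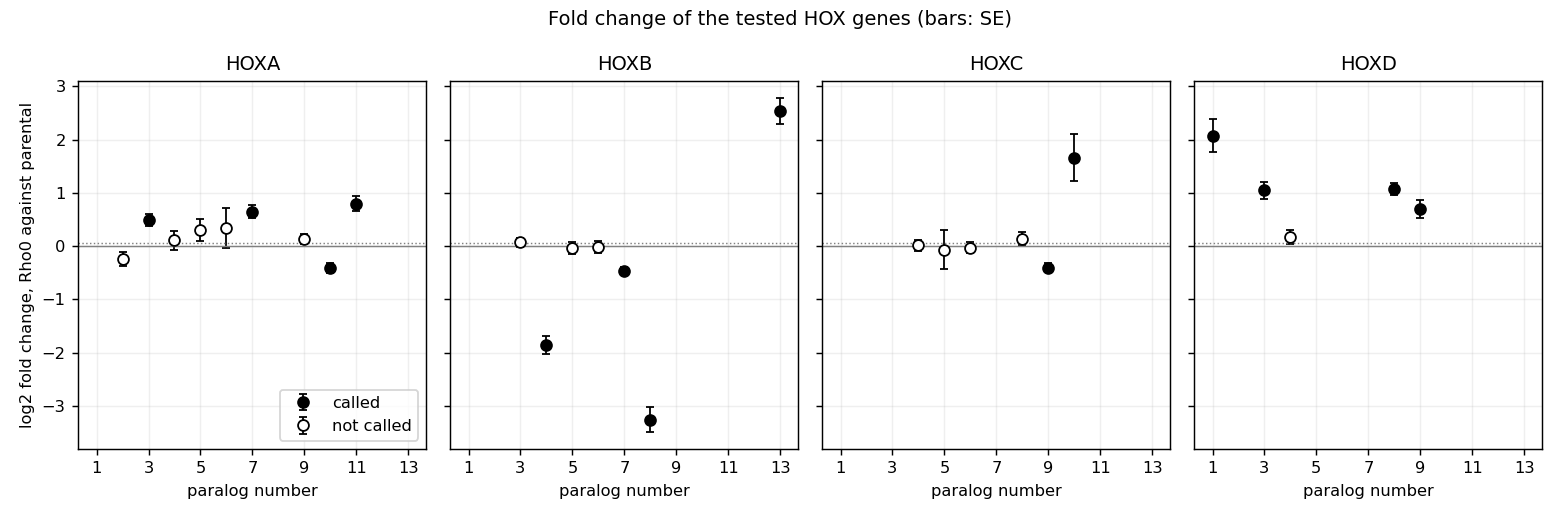
Log2 fold change of Rho0 against parental for 27 of the 28 HOX genes tested, by cluster and paralog number, with SE as bars, filled points for called genes and a dotted line at the median of all genes, 0.05. HOXB8 is the lowest point at -3.26 and HOXB13 the highest at 2.54.

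The largest changes of any tested HOX gene were in HOXB, where 1 of 7 tested genes rose and 3 fell, against 29.0% and 25.4% of all genes. With library size alone the balance turned, with 4 higher and 2 lower. HOXB13, the gene that rose, passed the filter mainly through its Rho0 counts. HOXB8, 1 of the 3 that fell, passed it mainly through its parental counts, so neither count describes the whole cluster. HOXB8, whose activation is known from leukaemia, measured 4.73, 4.37, 4.43 and 3.40 CPM in parental replicates 1 to 4 and 0.617, 0.301, 0.472 and 0.316 CPM in Rho0 replicates 1 to 4. It went from a clearly detected level to under 1 CPM in every Rho0 library. The fall was 9.58-fold (log2 fold change -3.26, SE 0.23, adjusted p = 9.8e-07), the largest among HOX genes. HOXB4, a factor that expands blood stem cells, measured 3.99, 3.18, 3.25 and 2.88 CPM in parental replicates 1 to 4 and 0.926, 1.05, 0.772 and 0.924 CPM in Rho0 replicates 1 to 4. The groups were far apart, and the gene was 3.64-fold lower in Rho0 (log2 fold change -1.86, SE 0.17, adjusted p = 6.4e-06). HOXB4 shares 4.23% of its exon bases with HOXB3.

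HOXB13, the isolated posterior gene of the cluster and a regulator of prostate development, measured 0.642, 0.557, 0.258 and 0.372 CPM in parental replicates 1 to 4 and 2.78, 3.16, 2.40 and 2.61 CPM in Rho0 replicates 1 to 4. Each Rho0 library exceeded each parental library, and the gene rose 5.81-fold (log2 fold change 2.54, SE 0.24, adjusted p = 9.5e-06). Its estimated counts were not whole in any of the 8 libraries, although none of its exon bases were shared with another counted gene. PRAC1 and PRAC2, which lie between HOXB9 and HOXB13, had 1 count and 0 counts in all libraries. HOXB9, on the near side of that gap, had 27 counts in the parental line and 37 in Rho0 and was not tested.

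HOXB7, which induces the growth factor FGF2 in tumour cells, measured 37.3, 39.0, 36.1 and 38.7 CPM in parental replicates 1 to 4 and 29.5, 28.6, 26.2 and 25.3 CPM in Rho0 replicates 1 to 4. All Rho0 values were below all parental values (log2 fold change -0.47, SE 0.07, adjusted p = 0.00037). The call was lost with library size alone, at a log2 fold change of -0.08. HOXB5 was at 9.70 ± 1.15 CPM in the parental line and 9.39 ± 0.866 CPM in Rho0, HOXB6 at 12.9 ± 0.990 CPM in the parental line and 12.7 ± 1.64 CPM in Rho0, and HOXB3 at 6.24 ± 0.216 CPM in the parental line and 6.53 ± 0.200 CPM in Rho0. None of these 3 was called. Within the HOXB sum, HOXB7 made up 50.4% in the parental line and 45.3% in Rho0, HOXB8 5.64% and 0.703%, and HOXB13 0.609% and 4.53%.

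In HOXA, 3 of 10 tested genes rose and 2 fell, against 29.0% and 25.4% of all genes. None of these tested genes reached a log2 fold change of 1 in size on the TMM scale. HOXA11, a gene of the limb and the reproductive tract, measured 2.02, 2.31, 2.11 and 1.86 CPM in parental replicates 1 to 4 and 3.82, 3.32, 3.95 and 3.34 CPM in Rho0 replicates 1 to 4. The lines were separate, and the gene rose 1.74-fold (log2 fold change 0.80, SE 0.14, adjusted p = 0.00062). HOXA7 measured 6.06, 5.85, 6.65 and 7.07 CPM in parental replicates 1 to 4 and 11.0, 9.72, 10.9 and 8.50 CPM in Rho0 replicates 1 to 4. It rose 1.57-fold (log2 fold change 0.65, SE 0.12, adjusted p = 0.00084), with every Rho0 value above every parental one. HOXA7 and HOXA11 are overlapped by antisense exons over 62.5% and 31.1% of their exon bases, with the same limit on strand as for HOXD1.

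HOXA3, known for roles in the thymus and in wound repair, measured 5.42, 5.49, 6.65 and 5.86 CPM in parental replicates 1 to 4 and 8.28, 7.61, 9.35 and 7.64 CPM in Rho0 replicates 1 to 4. It was higher in all Rho0 libraries (log2 fold change 0.49, SE 0.11, adjusted p = 0.0037). HOXA10, a factor of the uterus and the limb, measured 7.43, 7.44, 7.06 and 7.95 CPM in parental replicates 1 to 4 and 5.61, 5.95, 5.32 and 5.70 CPM in Rho0 replicates 1 to 4. It was lower in every Rho0 library (log2 fold change -0.41, SE 0.09, adjusted p = 0.004), but with library size alone its log2 fold change was -0.02 and the call was lost.

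The neighbours HOXA10 and HOXA11 went in different directions, HOXA10 down and HOXA11 up. HOXA2, next to HOXA3, was at 2.86 ± 0.230 CPM in the parental line and 2.41 ± 0.115 CPM in Rho0 without overlap, and was not called (adjusted p = 0.13). HOXA9, a factor of endothelial and blood development, was at 10.8 ± 1.10 CPM in the parental line and 11.8 ± 0.511 CPM in Rho0 and was not called (adjusted p = 0.27). HOXA4, HOXA5 and HOXA6 were not called either, with log2 fold changes of 0.11, 0.30 and 0.34. HOXA13, the posterior gene, had 4 counts over the parental libraries and 40 over the Rho0 libraries and did not pass the filter. Without a filter its log2 fold change was 2.76 (edgeR, adjusted p = 0.0018).

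In HOXC, 1 of 6 tested genes rose and 1 fell, against 29.0% and 25.4% of all genes. HOXC10, the gene that rose, passed the filter mainly through its Rho0 counts, so this count does not describe the whole cluster. The median of the tested genes was -0.01 on the log2 scale. HOXC9, a thoracic gene, measured 9.64, 10.6, 10.4 and 9.58 CPM in parental replicates 1 to 4 and 8.14, 6.93, 7.42 and 7.80 CPM in Rho0 replicates 1 to 4. All Rho0 libraries were lower (log2 fold change -0.40, SE 0.09, adjusted p = 0.0037), and the call was lost with library size alone, at -0.01. HOXC10, a lumbar gene, was at 0.186 ± 0.132 CPM in the parental line and 0.567 ± 0.182 CPM in Rho0, under 1 CPM in both lines, and rose 3.16-fold (log2 fold change 1.66, SE 0.44, adjusted p = 0.009). The 4 other tested genes, HOXC4, HOXC5, HOXC6 and HOXC8, had log2 fold changes of 0.01, -0.07, -0.03 and 0.14 and were not called. HOXC13 had 23 and 37 counts in the 2 lines. HOXC4, HOXC6 and HOXC9 share exon bases in pairs, as do HOXC5 and HOXC10 with the gene ENSG00000273049, so counts could be split between them.

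**Figure D4:**
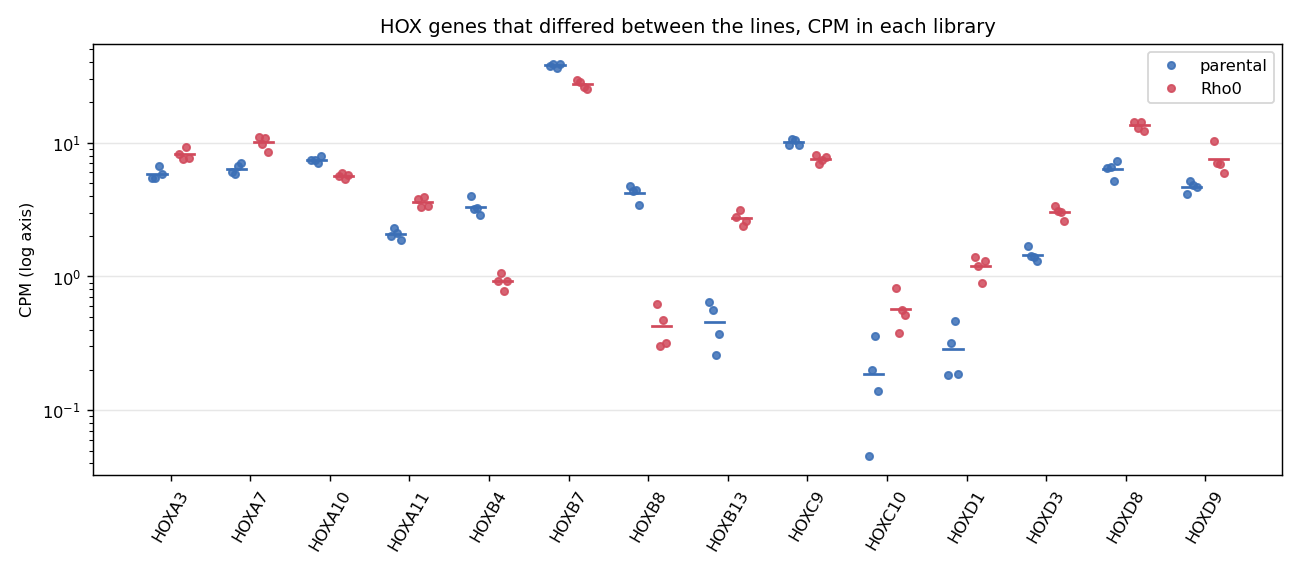
CPM in each library, on a log axis, of 14 of the 15 HOX genes called between the lines, with points for libraries and short lines for group means. HOXB8 and HOXB4 show the lowest Rho0 values relative to parental, and HOXB13 and HOXD1 the largest gaps in the other direction.

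By paralog number, 2 of the 15 genes with numbers 4 to 8 rose and 3 fell, against 29.0% and 25.4% of all genes, with a median of 0.01. HOXB8, 1 of the 3 that fell, passed the filter mainly through its parental counts. Of the 16 genes with numbers 9 to 13, 9 were not tested. HOXC10, with 16.1 parental and 69.9 Rho0 counts, and HOXB13, with 41.99 and 313.7, passed the filter mainly through Rho0, so no share is given for that class. The 2 largest falls, HOXB8 and HOXB4, were both in the middle class. In paralog groups 7, 8, 9 and 10, 1 gene rose and 1 fell. In group 8 HOXB8 fell, HOXD8 rose and HOXC8 was not called. In groups 7, 9 and 10 the genes that fell were HOXB7, HOXC9 and HOXA10, the 3 whose calls were lost with library size alone, and those that rose were HOXA7, HOXD9 and HOXC10. In group 3 HOXA3 and HOXD3 both rose.

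Ratios between paralogs within a library, per kb and chosen after the values were seen, do not depend on scaling between libraries. HOXD8 over HOXB8 was 0.601 to 1.11 in the parental libraries and 11.9 to 22.1 in the Rho0 libraries. The adjacent genes HOXB3 and HOXB4 had ratios of 4.20 to 5.63 and 16.3 to 22.05.

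Around the clusters, the 5 nearest protein-coding genes on each side were taken, 40 in all. Of the 34 tested, 14 were higher in Rho0 and 10 were lower, against 29.0% and 25.4% of all genes, and their median was 0.10 on the log2 scale. JAZF1 and CREB5, among the 14, passed the filter mainly through their Rho0 counts, and SKAP1, among the 10, mainly through its parental counts. These counts therefore do not describe all 40 genes. With 3 genes a side the balance turned, with 5 higher, 8 lower and a median of -0.10. Beside HOXD 5 of 9 rose and 1 fell, beside HOXA 4 of 8 and 2, beside HOXB 2 of 9 and 3, and beside HOXC 3 of 8 and 4. LNPK, which shapes the endoplasmic reticulum and lies 90.1 kb from the cluster, was at 5.74 ± 0.336 CPM in the parental line and 14.1 ± 2.71 CPM in Rho0 (log2 fold change 1.30, SE 0.14, adjusted p = 2.5e-05). NFE2L2, the regulator of the oxidative stress response, lies 1037 kb away on the other side and was at 30.8 ± 2.81 CPM in the parental line and 55.1 ± 9.81 CPM in Rho0 (log2 fold change 0.84, SE 0.13, adjusted p = 0.00025). TAX1BP1, 539 kb from HOXA, was at 39.1 ± 4.35 CPM in the parental line and 65.9 ± 16.6 CPM in Rho0 (log2 fold change 0.76, SE 0.16, adjusted p = 0.0024). The homeobox genes EVX1 and EVX2, next to HOXA and HOXD, had 0 counts in every library.

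Proteins that bind DNA with HOX factors or act on HOX chromatin were taken as lists. Of 8 TALE cofactors tested, 3 rose and 1 fell, against 29.0% and 25.4% of all genes. Their median was 0.04 on the log2 scale, against 0.05 for all genes. MEIS3, 1 of the 3 that rose, passed the filter mainly through its Rho0 counts, so the count does not describe the whole list. PKNOX1 was at 15.4 ± 0.822 CPM in the parental line and 23.2 ± 1.08 CPM in Rho0 (log2 fold change 0.59, SE 0.08, adjusted p = 8.5e-05) and MEIS1 at 3.23 ± 0.460 CPM in the parental line and 6.42 ± 1.35 CPM in Rho0 (log2 fold change 0.98, SE 0.18, adjusted p = 0.00094). MEIS2, the most abundant of the named cofactors, was at 35.2 ± 1.33 CPM in the parental line and 28.9 ± 3.59 CPM in Rho0 (log2 fold change -0.28, SE 0.09, adjusted p = 0.026). That call was lost without parental replicate 3 (adjusted p = 0.051) or 4 (adjusted p = 0.073), and its log2 fold change was 0.12 with library size alone.

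Polycomb repressive complex 2, which places the repressive mark on lysine 27 of histone H3, had 5 of 11 genes lower and 2 higher. The shares of all genes were 25.4% and 29.0%, and the median of the list was -0.11. The balance turned with library size alone, to 4 higher and 2 lower, and 1 gene was higher with DESeq2 size factors, the DESeq2 Wald test, no filter, totals that leave out mitochondrial genes or the replicate block. Leaving out 1 library gave 1 to 3 higher, with 3 without Rho0 replicate 1. Its catalytic subunit EZH2 was at 61.8 ± 0.796 CPM in the parental line and 40.8 ± 2.02 CPM in Rho0 (log2 fold change -0.60, SE 0.06, adjusted p = 2.1e-05), and its subunits RBBP7 and EED had log2 fold changes of -0.81 and -0.50 (adjusted p = 1.3e-06 and 0.00047). EED lost its call with library size alone, at -0.11. In complex 1, which compacts marked chromatin, 12 of 19 genes rose and 3 fell, against 29.0% and 25.4% of all genes. The median was 0.35. Leaving out 1 library gave 9 to 11 higher and 2 to 3 lower, and library size alone gave 1 lower. BMI1 was at 15.6 ± 0.434 CPM in the parental line and 29.7 ± 6.32 CPM in Rho0 (log2 fold change 0.94, SE 0.13, adjusted p = 0.00017), and CBX8 and PHC3 had log2 fold changes of 0.69 and 0.72.

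Among 18 genes of the opposing trithorax and MLL group, 4 rose and 4 fell, against 29.0% and 25.4% of all genes. The median was 0.03. With library size alone 12 were higher and 3 lower. MLLT10 and MLLT3 had log2 fold changes of 1.02 and 0.83, and KAT6A, a histone acetyltransferase, of -0.80. Of 10 CTCF and cohesin genes, which organise the loops of the clusters, 1 rose and 2 fell, against 29.0% and 25.4% of all genes. The median was also 0.03. With library size alone 6 were higher and 1 lower, and without Rho0 replicate 1 there were 3 higher. SMC1A was at -0.73, RAD21 at -0.63 and PDS5B at 0.58 on the log2 scale, and RAD21 lost its call with library size alone, at -0.24.

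Retinoic acid induces anterior HOX genes during development. Of 11 tested genes of its pathway, 7 rose and 1 fell, against 29.0% and 25.4% of all genes. Their median was 1.01 on the log2 scale. RARB and ALDH1A1 passed the filter mainly through their Rho0 counts, so this count does not describe the whole pathway. RARB, a retinoic acid receptor that is itself a target of retinoic acid, was at 0.350 ± 0.113 CPM in the parental line and 20.6 ± 3.37 CPM in Rho0 (log2 fold change 5.85, SE 0.21, adjusted p = 6.4e-09). CYP26B1, an enzyme that degrades retinoic acid, was at 1.55 ± 0.367 CPM in the parental line and 19.1 ± 1.53 CPM in Rho0 (log2 fold change 3.63, SE 0.16, adjusted p = 2.3e-08). ALDH1A1, which makes it, had a log2 fold change of 8.55. Among the anterior HOX genes, HOXD1, HOXD3 and HOXA3 rose, HOXA2 and HOXB3 were not called, and any relation to these changes was not tested.

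**Figure D5:**
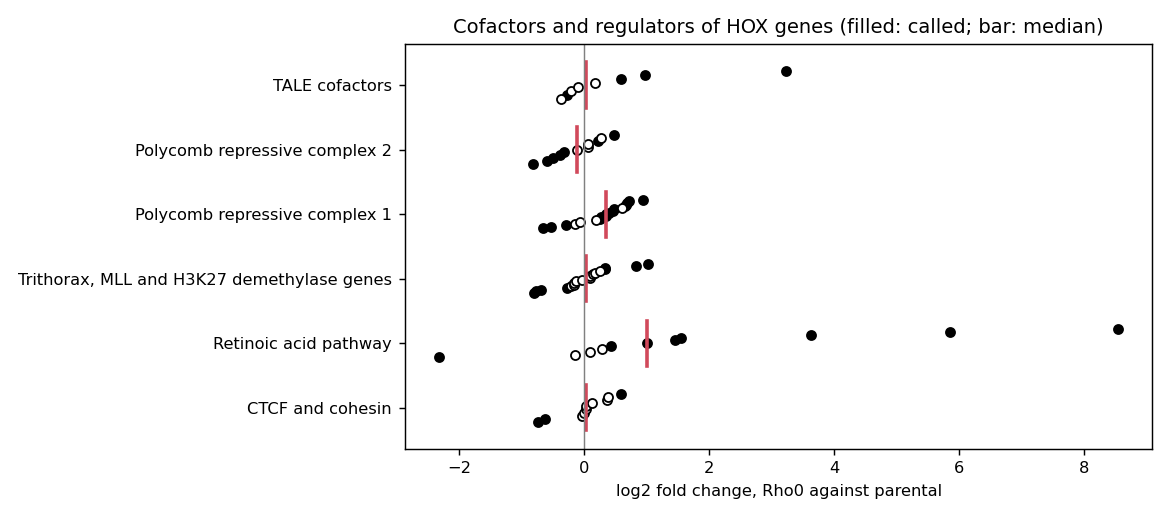
Log2 fold change of Rho0 against parental (horizontal axis) for every tested gene of 6 of the lists, with filled points for called genes, open points for the rest and a bar at each list's median. ALDH1A1 and RARB lie farthest to the right at 8.55 and 5.85, and the Polycomb genes lie between -0.81 and 0.94.

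Among 27 other homeobox genes tested of 64, 11 rose and 5 fell, against 29.0% and 25.4% of all genes, with a median of 0.26. LHX9, LMX1B and IRX3, among the 11, passed the filter mainly through their Rho0 counts, so this count does not describe the whole list. With library size alone 17 rose and 2 fell, and with the filter of 50 counts 7 rose and 3 fell. Of the 64, 21 had 0 counts in every library. SHOX2 rose, with a log2 fold change of 1.59, and MSX1 fell, at -1.59. Of 16 tested genes that HOX factors have been linked to in vascular cells, 8 rose and 3 fell. The shares of all genes were 29.0% and 25.4%, and the median of the list was 0.31. THBS2, 1 of the 8 that rose, passed the filter mainly through its Rho0 counts, so the count does not describe the whole list. With library size alone 13 rose. KDR, the main receptor for VEGF and also 1 of the endothelial markers, was at 13.8 ± 0.794 CPM in the parental line and 131 ± 13.5 CPM in Rho0 (log2 fold change 3.24, SE 0.09, adjusted p = 2.6e-09). ITGAV, the alpha chain of the integrin that HOXD3 is known to induce, was at 41.8 ± 3.98 CPM in the parental line and 168 ± 45.8 CPM in Rho0 (log2 fold change 2.01, SE 0.17, adjusted p = 3.5e-06), and EFNA1 fell to a log2 fold change of -1.79. Any relation of the genes on this list to the HOX levels was not tested. Over the 8 lists together, 48 of 120 tested genes were higher and 24 were lower, against 29.0% and 25.4% of all genes, and with library size alone 79 were higher and 13 lower. The 48 include the genes named above that passed the filter mainly through their Rho0 counts.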

How the data were processed

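RNA was measured in 8 libraries, 4 per line, each 1 replicate of its group. The authors deposited estimated counts for 38010 Ensembl genes and a log2 table of scaled values plus 1. Per the submitters' processing notes, kallisto, edgeR, limma and GRCh38 were used; versions, roles, annotation release and strand use are not given in the sources used here. Both the members and the lists were chosen with earlier results of these data known.

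The rounded estimates were passed to edgeR 4.0.16 under R 4.3.3. Scaling was by TMM, low genes were removed by filterByExpr (minimum count 10), and lines were compared by the quasi-likelihood F-test. P-values were adjusted by Benjamini-Hochberg over 15184 genes, with a threshold of 0.05. SE is the size of the log2 fold change divided by the square root of F, and errors of means are SD (n = 4). The biological coefficient of variation was 13.7%. Coordinates, transcript lengths and exon overlaps came from GENCODE 29. Promoters came from RefSeq. Of the 39 HOX genes, 15 had at least 1 estimated count that was not whole within 0.001, 14 shared exon bases with another counted gene on the same strand and 19 were overlapped by antisense exons.

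Values per library are given for called HOX genes whose higher line averaged at least 1 CPM. From each list and the flanking genes, up to 3 called genes with the largest change are named, among those averaging at least 5 CPM in 1 line. Of the genes this rule selects, 1 HOX gene and 1 other homeobox gene enter the counts but are not reported here. Other genes were named after their values were seen where a count or the position of a gene required it. The fit was tested on simulated counts. Alternatives were DESeq2 1.42.0 (size factors and Wald test), library size alone, no filter, a stricter filter (50 counts, 4 libraries), totals that leave out mitochondrial genes, limma 3.58.1 (voom, and trend on the log2 values the authors deposited), a replicate block, the longest transcript as the length, 3 or 10 flanking genes a side and leaving out each library. The sum of HOXD3, HOXD4 and AC009336.2 was an alternative chosen after seeing the data. Summaries were computed under Python 3.11.15. Intervals of 3 counts cover counting error only.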

Additional observations from a re-analysis of the deposited data

Results flagged for a closer look

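Of 120 groups of 4 libraries examined, 3 had 1 library far from the others by Dixon's test, which chance gives in about 1 of 20 groups. HOXA5 in parental replicate 3 was at 1.13 CPM, with the nearest library at 2.14 CPM. HOXB6 in parental replicate 4 was at 11.4 CPM, with the nearest at 13.3 CPM. The summed HOXB level in Rho0 replicate 1 was 61.9 CPM, with the nearest at 60.03 CPM. HOXA5 and HOXB6 were not called between the lines, and the HOXB sum was lower in every Rho0 library on the TMM scale.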

How the results depend on the processing

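Of the 15 HOX calls, 12 held in every alternative in which the gene was tested, and HOXA10, HOXB7 and HOXC9 were lost with library size alone. That scaling moved the median of all genes by 0.39 on the log2 scale and gave 19 HOX genes higher and 3 lower, 8583 and 1540 of all genes, 79 and 13 of the related genes, and 23 and 1 of the flanking genes. It gave summed log2 ratios of 0.55 for HOXA, 0.080 for HOXB (reversed), 0.33 for HOXC, 1.26 for HOXD and 0.41 for all HOX genes. It also turned the sign of HOXA2 (0.14), HOXB5 (0.35), HOXB6 (0.39), HOXC5 (0.33), HOXC6 (0.36) and MEIS2 (0.12). The cause was not tested. The HOXB sum was -0.34 with DESeq2 size factors and -0.35 to -0.30 when 1 library was left out, and the sum of all HOX genes -0.041 to 0.033. The filter of 50 counts left 22 HOX genes, of which 5 were higher and 6 lower. Without a filter 11 were higher. With 3 flanking genes a side 5 were higher and 8 lower (median -0.10), and with 10 a side 21 were higher and 18 lower (median 0.03). HOXC4, not called, was -0.020 with DESeq2 size factors, -0.019 with the DESeq2 Wald test and -0.0036 with totals that leave out mitochondrial genes. HOXB6 was 0.0021 without a filter and 0.016 with the stricter one, and HOXC5 was 0.037 in limma-voom. Leaving out 1 library gave -0.011 to 0.24 for HOXA4, -0.12 to 0.013 for HOXB5, -0.10 to 0.029 for HOXB6, -0.11 to 0.052 for HOXC4, -0.33 to 0.35 for HOXC5 and -0.12 to 0.037 for HOXC6, and none of these was called. Replicate numbers did not pair the samples, since correlations between samples with the same number ran from -0.13 to 0.16. With a replicate block, 9 HOX genes were higher and 6 lower. Genes under 3 counts a library could not be resolved at this depth.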
